A study of Homo sapiens with 32 samples.

Results

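The collagen crosslinking and hydroxylation enzymes were 10 genes chosen by name: the lysyl oxidases LOX, LOXL1, LOXL2 and LOXL4, the lysyl hydroxylases PLOD1, PLOD2 and PLOD3, and the prolyl 4-hydroxylase alpha subunits P4HA1, P4HA2 and P4HA3. All 10 were among the 17788 genes counted, and the rule that names them holds no expression threshold. RNA was sequenced from 32 libraries of MCF10A, a human breast epithelial line that does not form tumours, in which clones with intact JUNB (WT, clones 27 and 2) were set beside clones labelled JUNB knock-out (mut, clones 1 and 65). Each clone received solvent, which the labels give as time 0 and the study's description as 72 h of solvent, or TGFβ1 at 5 ng/ml for 6, 24 or 72 h, and 2 replications were sequenced per clone and time, which gave 8 groups of 4 libraries. All 4 lines were clones derived from single MCF10A cells, and the mut clones carried a CRISPR/Cas9 deletion in JUNB that still allowed a smaller JUNB polypeptide at a low level. A series is 1 clone in 1 replication followed through all 4 conditions, so that WT 27-1 is clone 27 in replication 1.

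Fibrillar and basement membrane collagens are modified while their chains are still in the endoplasmic reticulum. Prolyl 4-hydroxylases, built from an alpha subunit and the disulfide isomerase P4HB, convert proline to 4-hydroxyproline, which stabilises the triple helix. Lysyl hydroxylases convert lysine to hydroxylysine. After secretion, lysyl oxidases oxidise lysine and hydroxylysine side chains to aldehydes, which condense into the covalent crosslinks that hold collagen and elastin fibres together. Matrix stiffened in this way is a known feature of fibrosis and of breast tumours, and TGFβ1 is a classical inducer of matrix genes.

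Library totals lay between 39702412 and 54651906 counts. JUNB RNA under solvent differed between the mut clones. WT libraries held 89.7 to 117 CPM (counts scaled to the same library total). Mut clone 1 lay below that range (69.2 and 77.5 CPM) and mut clone 65 above it (128 and 172 CPM). Over both clones the difference of 0.10 ± 0.34 (log2, SE) from WT did not pass the test (limma-voom, adjusted p = 0.885). The count of a gene with an internal deletion does not check the edit. The 6 basal mammary markers (KRT5, KRT14, KRT17, TP63, ITGA6 and ITGB4) summed to between 9156 and 18711 CPM in every library. Under solvent this basal sum was 9249 to 11428 CPM in WT and 12418 to 14782 CPM in mut. KRT17 (1.09) and ITGB4 (0.41) were called higher and ITGA6 (-0.42) lower in mut under solvent. At 72 h in WT, KRT14, ITGA6 and ITGB4 were called higher than in solvent and KRT5 lower. The 4 general epithelial markers (EPCAM, CDH1, KRT8 and KRT18) summed to between 425 and 932 CPM. Under solvent the epithelial sum was 524 to 790 CPM in WT and 797 to 932 CPM in mut. All but CDH1 were called higher in mut under solvent, where 6.38% of all genes were. At 72 h in WT, EPCAM (-1.66) and CDH1 (-0.65) were called lower than in solvent and KRT8 (0.53) higher. At 72 h EPCAM was higher in mut than in WT (1.43), and CDH1, KRT8 and KRT18 did not pass. The fibroblast markers measured, 3 of 4 listed, summed to 4.93 to 34.5 CPM and moved apart: at 72 h DCN, which carries most of the sum, was higher in mut (1.63, adjusted p = 4.5e-05), PDGFRA was lower (-1.39, adjusted p = 0.0017) and PDGFRB did not pass. The endothelial marker VWF did not exceed 0.140 CPM, and of 3 leukocyte markers 2 stayed at or under 3 counts in every library, and the third, CD68, was lower in mut at every time (-1.08 to -0.88) and higher in WT after 24 and 72 h (0.68 and 0.73). The part of these marker differences in the results below was not tested. In bulk RNA, fewer cells that express a gene and less RNA per cell cannot be told apart.

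In WT clones the set moved upward after TGFβ1. Of the 9 members with enough counts to test, 4, 5 and 6 were higher after 6, 24 and 72 h, and none was lower. Across all 14865 genes tested, 5.13%, 14.1% and 13.9% were called higher and 11.9%, 38.0% and 38.4% lower at these times. In mut clones 1, 4 and 4 members were higher and none lower, where 2.06%, 6.75% and 7.81% of all genes were called higher and 4.94%, 17.1% and 16.3% lower. The median log2 change of the 9 members in WT was 0.26, 0.60 and 0.67, beside -0.08, -0.18 and -0.19 for all genes, and in mut it was 0.09, 0.37 and 0.61, beside -0.06, -0.10 and -0.09. A gene was called at an adjusted p below 0.05, by limma-voom over all 32 libraries with Benjamini-Hochberg adjustment over all genes tested, and every adjusted p below comes from that test unless another is named. All times share their solvent libraries. The shares of all genes above depend on the scaling. With TMM factors, which correct the scaling for composition, 1042, 3499 and 3189 genes were called higher in WT and 919, 3452 and 3459 lower. In mut these numbers were 416, 1376 and 1596 higher and 306, 1195 and 1473 lower. Members called with TMM factors were 5, 7 and 8 in WT and 1, 6 and 6 in mut.

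**Figure D1:**
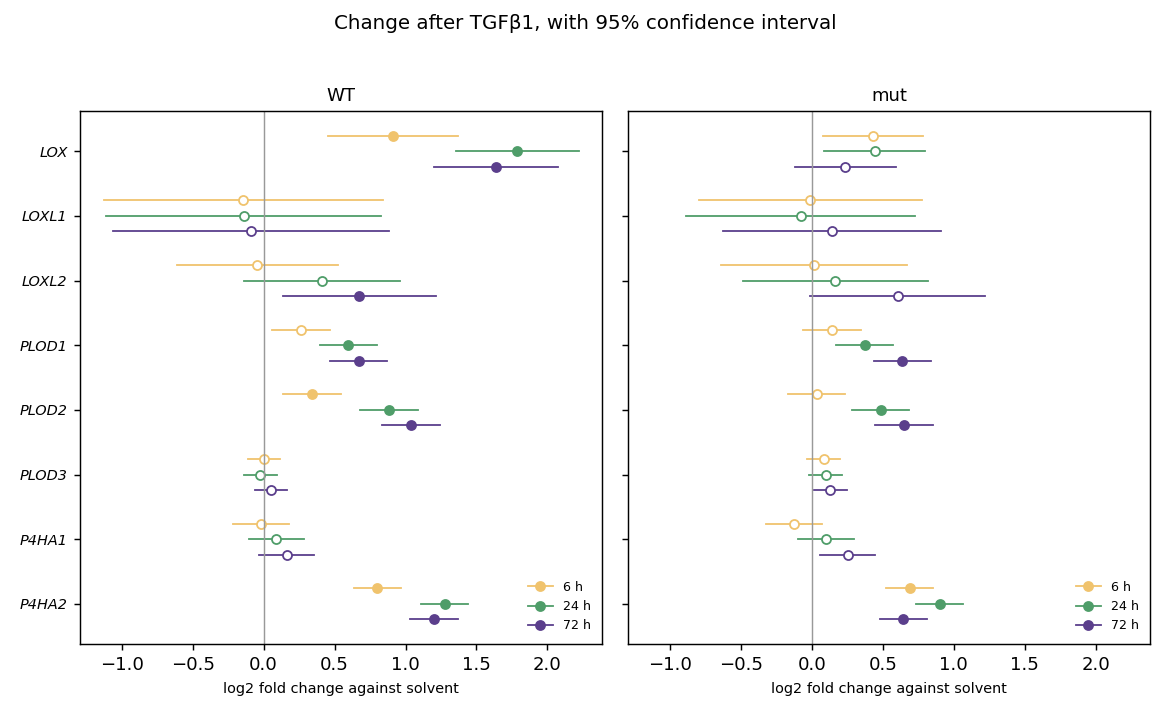
Log2 fold change of 8 members after 6, 24 and 72 h of TGFβ1 against solvent, in WT (left) and mut (right), as points with 95% confidence intervals, filled where the adjusted p was below 0.05. LOX stood at 1.64 in WT and 0.24 in mut at 72 h, while PLOD1 stood at 0.67 and 0.64. P4HA3 and LOXL4, with few counts, are left out.

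From 6 to 24 h, 4 members were higher in WT (LOX, PLOD1, PLOD2 and P4HA2) where 7.16% of all genes were called higher, and 1 in mut (PLOD2) where 1.30% were. With each series as a replicate block 6 members passed in WT, with LOXL2 (0.43, adjusted p = 0.0012) and P4HA3 added, and 4 in mut, with PLOD1 (0.23), P4HA1 (0.23) and P4HA3 added (adjusted p = 0.013, 0.016 and 0.0072). From 24 to 72 h no member was called in either genotype by limma-voom, where 7.83% of all genes were called in WT and 1.31% in mut. At an unadjusted p below 0.05 the counts were 0 in WT and 2 in mut, edgeR and DESeq2 called 0 in both, and the series block called 0 in WT and 3 in mut (LOXL2 0.44, PLOD1 0.27, P4HA2 -0.26, log2). PLOD2 from 6 to 24 h in mut (0.45 ± 0.10) fell to an adjusted p of 0.073 without mut 1-1 at 24 h and 0.052 without mut 65-1. PLOD1 over the same interval in WT (0.33 ± 0.10) fell to an adjusted p of 0.058 without WT 27-1 at 6 h and 0.067 without WT 27-2 at 24 h.

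The only member called higher in mut was LOX, under solvent and at 6 h, and calls lower in mut came at 6, 24 and 72 h. Under solvent 1 member, LOX, was higher in mut and none lower, and 6.38% of all genes were called higher and 6.32% lower. At 6 h, 1 member was higher and 2 lower (11.3% and 10.0% of all genes), at 24 h none was higher and 5 were lower (24.7% and 12.2%), and at 72 h none was higher and 4 were lower (26.0% and 13.2%). These shares depend on the scaling as well. With TMM factors 2386 genes were called higher in mut and 2553 lower at 24 h, and 2776 and 2653 at 72 h. Members called with TMM factors were 5 and 4 at these times. The response to TGFβ1, tested as the change in mut minus the change in WT, differed for LOX and P4HA2 at 24 and 72 h, where 9.65% and 12.3% of all genes were called, and both responses were smaller in mut. At 6 h no member passed by limma-voom, edgeR or DESeq2, 1 passed at an unadjusted p below 0.05, and 0.0740% of all genes were called.

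**Figure D2:**
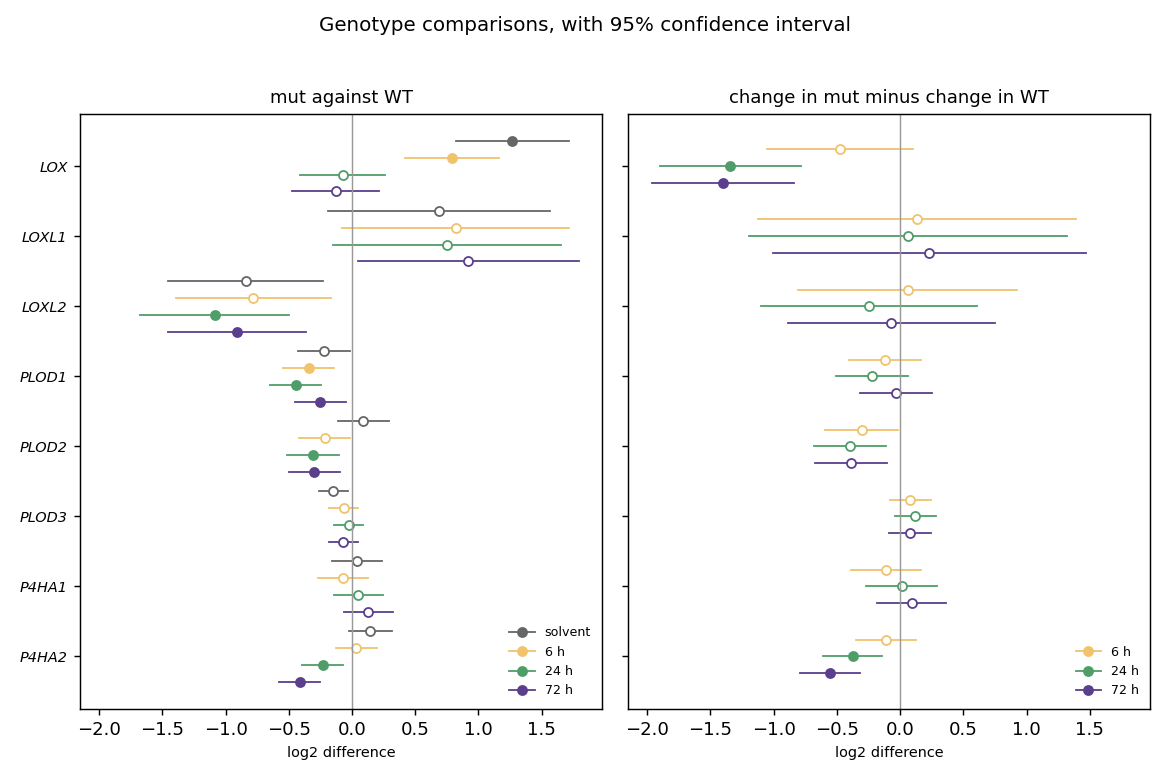
Left, log2 difference of mut against WT for 8 members under solvent and after 6, 24 and 72 h. Right, the change after TGFβ1 in mut minus that in WT, both with 95% confidence intervals and filled points where the adjusted p was below 0.05. LOX was 1.27 higher in mut under solvent and its change after 72 h was 1.40 smaller, shown as -1.40.

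The start regions of 3 members are shown because LOX and P4HA2 responded less in mut, and PLOD2 was the member with the highest count. RefSeq promoter windows (GRCh38.p14) were matched by symbol for 8 of the 10 members, with 3 windows for LOX and none used for LOXL2 or P4HA3. The 250 bases before the annotated start are given 5′ to 3′ on the gene's strand, at chr5:122078260-122078509 for LOX (the outermost of its 3 starts), chr3:146161185-146161434 for PLOD2 and chr5:132227092-132227341 for P4HA2, all on the minus strand. All 3 windows lie wholly or partly inside the GENCODE gene model, which begins farther upstream.
LOX: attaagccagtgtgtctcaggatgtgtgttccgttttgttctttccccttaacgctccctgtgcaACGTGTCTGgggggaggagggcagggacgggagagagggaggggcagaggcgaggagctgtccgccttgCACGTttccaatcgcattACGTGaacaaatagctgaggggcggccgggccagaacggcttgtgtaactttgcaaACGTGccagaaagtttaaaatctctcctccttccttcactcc
PLOD2: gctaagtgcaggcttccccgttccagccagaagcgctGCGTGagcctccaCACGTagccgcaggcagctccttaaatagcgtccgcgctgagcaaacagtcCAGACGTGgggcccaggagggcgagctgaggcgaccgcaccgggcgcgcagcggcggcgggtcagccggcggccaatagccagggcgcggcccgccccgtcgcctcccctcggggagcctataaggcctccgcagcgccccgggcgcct
P4HA2: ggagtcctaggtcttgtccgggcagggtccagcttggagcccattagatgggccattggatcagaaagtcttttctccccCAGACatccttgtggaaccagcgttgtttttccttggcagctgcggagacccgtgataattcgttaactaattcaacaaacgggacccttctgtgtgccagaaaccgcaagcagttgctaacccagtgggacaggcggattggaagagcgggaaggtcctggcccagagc
Capitals mark every match, on either strand, to 5 short motifs: TGANTCA (AP-1, the dimers that JUNB joins), TGACGTCA (the longer site of the same family), CAGAC (bound by SMAD3 and SMAD4) and the hypoxia response cores ACGTG and GCGTG. Neither AP-1 motif occurred in these 3 windows or in the other windows of the members, while 6.57% and 1.65% of 35116 promoter windows held them. CAGAC, held by 38.0% of windows, occurred once in each of the 3, at 181 bases before the start in LOX, 149 in PLOD2 and 170 in P4HA2. ACGTG, held by 18.5%, occurred 4 times in LOX and 2 times in PLOD2, and GCGTG, held by 32.2%, occurred once in PLOD2. The SMAD and hypoxia letters overlap in LOX and again in PLOD2, where they form 1 run of capitals. A match to letters is a description and not a site of binding. The lack of an AP-1 match in 250 bases leaves sites elsewhere unseen. The study reported JUNB motifs in regions both near gene starts and far from them, so these windows cannot speak to regulation by JUNB.

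LOX, the founding lysyl oxidase, showed the clearest difference between genotypes. The gene lies on chromosome 5, bases 122063195 to 122078413 of GRCh38, and exons of SRFBP1 overlap it on the other strand, which the library kit does not distinguish. In WT, with libraries given here and below in the order 27-1, 2-1, 27-2, 2-2, the solvent libraries held 8.93, 10.7, 8.75 and 11.4 CPM, and those at 6 h 17.4, 29.2, 13.9 and 17.7 CPM. At 24 h they held 31.2, 40.2, 37.8 and 28.5 CPM, and at 72 h 21.1, 34.5, 41.0 and 29.4 CPM. Every treated WT library stood above every WT solvent library. In mut, in the order 1-1, 65-1, 1-2, 65-2, solvent libraries already held 21.5, 20.2, 27.8 and 26.6 CPM, and those at 6 h 35.8, 31.0, 29.3 and 32.7 CPM. At 24 h they held 38.1, 31.5, 32.9 and 27.6 CPM, and at 72 h 31.4, 24.8, 30.6 and 25.2 CPM. All 4 mut solvent libraries lay above the WT solvent range, and mut overlapped WT at 24 and 72 h.

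LOX rose in WT by 0.91 ± 0.22 at 6 h, 1.79 ± 0.21 at 24 h and 1.64 ± 0.21 at 72 h (log2, SE; adjusted p = 0.0050, 5.8e-08 and 3.4e-07), or 1.88-, 3.45- and 3.11-fold. In mut the changes were 0.43 ± 0.17, 0.44 ± 0.17 and 0.24 ± 0.17 and did not pass (adjusted p = 0.118, 0.061 and 0.348). With each series as a replicate block the first 2 of these passed (0.44, adjusted p = 0.035, and 0.44, adjusted p = 0.017). The 24 h value in mut also passed with TMM scaling (0.53), edgeR (0.53), DESeq2 (0.54), the compared groups alone (0.44), without the series WT 27-2 (0.44) and without mut 65-2 at 24 h (0.52), with adjusted p = 0.017 to 0.048. The mut libraries were 2.41-fold higher than WT under solvent (1.27 ± 0.22, adjusted p = 0.00016) and 1.73-fold higher at 6 h (0.79 ± 0.18, adjusted p = 0.0020). At 24 and 72 h the difference was -0.07 (95% interval -0.41 to 0.26) and -0.13 (-0.48 to 0.22). The difference in response was -1.34 ± 0.27 at 24 h (adjusted p = 0.0030) and -1.40 ± 0.28 at 72 h (adjusted p = 0.0014). Within single series the log2 ratio to the solvent library ran from 1.24 to 2.23 in WT and from -0.08 to 0.54 in mut at 72 h, with no overlap.

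**Figure D3:**
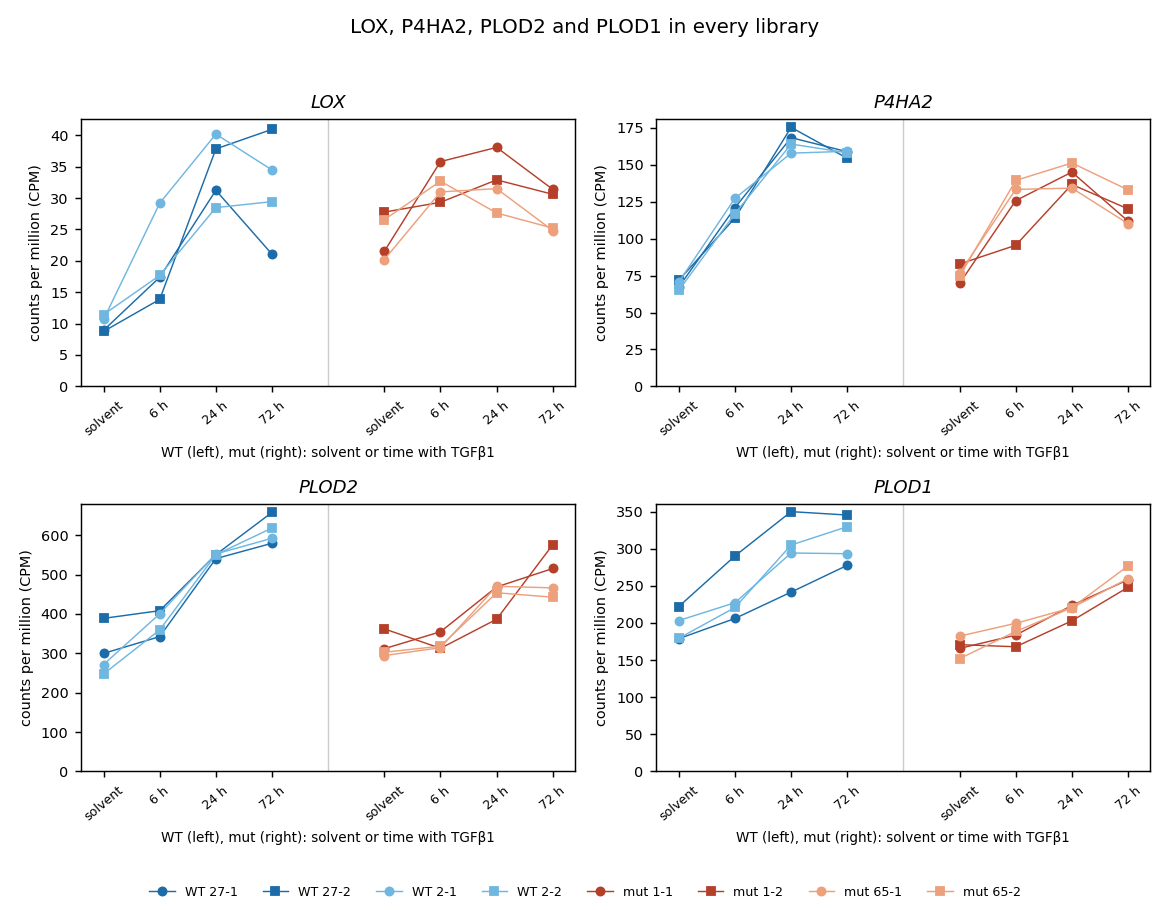
CPM of LOX, P4HA2, PLOD2 and PLOD1 in all 32 libraries, WT on the left and mut on the right of each panel, with a line for each series (clone and replication). LOX in the mut solvent libraries, 20.2 to 27.8 CPM, lies above the 4 WT solvent libraries, 8.75 to 11.4 CPM.

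P4HA2, an alpha subunit of prolyl 4-hydroxylase, rose in both genotypes and reached lower levels in mut at 24 and 72 h. It lies on chromosome 5, bases 132190147 to 132295315, and exons of P4HA2-AS1 overlap it on the other strand. WT solvent libraries held 67.3, 70.7, 71.9 and 65.0 CPM, and WT 6 h libraries 121, 127, 114 and 117 CPM. At 24 h WT libraries held 168, 158, 175 and 164 CPM, and at 72 h 159, 159, 154 and 158 CPM. These 4 WT series ran closely together at every time. In mut the solvent libraries held 69.7, 76.8, 82.9 and 74.5 CPM, and the 6 h libraries 126, 133, 95.6 and 139 CPM, with mut 1-2 the lowest. At 24 h mut libraries held 145, 134, 137 and 151 CPM, and at 72 h 112, 110, 120 and 133 CPM. Solvent and 6 h libraries overlapped between the genotypes, and all mut libraries at 24 and 72 h were below all WT libraries of the same time.

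The rise of P4HA2 in WT after 6, 24 and 72 h was 0.80 ± 0.08, 1.28 ± 0.08 and 1.20 ± 0.08 (adjusted p = 1.3e-07, 4.1e-12 and 7.6e-12). In mut it was 0.69 ± 0.08, 0.90 ± 0.08 and 0.64 ± 0.08 (adjusted p = 9.3e-06, 1.0e-08 and 1.1e-06), the only member that passed at 6 h in mut. The mut libraries were lower by -0.23 ± 0.08 at 24 h (adjusted p = 0.022) and -0.41 ± 0.08 at 72 h (adjusted p = 0.00014). The response differed by -0.37 ± 0.11 at 24 h (adjusted p = 0.036) and -0.55 ± 0.11 at 72 h (adjusted p = 0.0020). At 24 h the difference in response lost its call without any 1 of 10 of the libraries involved (values -0.38 to -0.33, adjusted p = 0.052 to 0.087), and the difference between genotypes lost its call without WT 27-2, mut 65-1 or mut 1-2 (-0.21, adjusted p = 0.059 to 0.067). Both calls at 24 h were also lost with the replications of a clone summed (adjusted p = 0.111 and 0.053) and without the series WT 27-2 (0.073 and 0.070). The values at 72 h kept their calls without each single library. The fall from 24 to 72 h in mut (-0.26 ± 0.08, adjusted p = 0.097) passed with the series block (-0.26, adjusted p = 0.029) and without mut 65-2 at 72 h (-0.31, adjusted p = 0.040).

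PLOD2, the lysyl hydroxylase that modifies collagen telopeptides, had the highest CPM of the members. It lies on chromosome 3, bases 146035139 to 146163725, with no overlapping gene in the table. WT solvent libraries held 300, 272, 389 and 248 CPM, and WT 6 h libraries 343, 401, 408 and 360 CPM. At 24 h WT libraries held 541, 553, 551 and 551 CPM, and at 72 h 580, 592, 658 and 619 CPM. WT 27-2 was highest under solvent, and the 4 series stood close together at 24 h. In mut the solvent libraries held 312, 294, 362 and 303 CPM, and the 6 h libraries 355, 314, 313 and 318 CPM. At 24 h mut libraries held 469, 470, 387 and 454 CPM, and at 72 h 516, 466, 576 and 443 CPM. The genotypes overlapped under solvent and at 6 h and were apart at 24 and 72 h.

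PLOD2 rose in WT by 0.34 ± 0.10, 0.88 ± 0.10 and 1.04 ± 0.10 at 6, 24 and 72 h (adjusted p = 0.017, 2.6e-08 and 2.0e-09), which is 2.05-fold at 72 h. In mut it changed by 0.04 ± 0.10 at 6 h, which did not pass (adjusted p = 0.879), and rose by 0.49 ± 0.10 and 0.65 ± 0.10 at 24 and 72 h (adjusted p = 0.00073 and 1.5e-05). The mut libraries were lower at 24 h (-0.31 ± 0.10, adjusted p = 0.016) and at 72 h (-0.30 ± 0.10, adjusted p = 0.018). The difference in response was -0.40 ± 0.14 at 24 h and -0.39 ± 0.14 at 72 h and did not pass (adjusted p = 0.070 and 0.067), while with the series as a block it did (-0.40 and -0.39, adjusted p = 0.024 and 0.023), as it did with TMM scaling and DESeq2 (-0.49 to -0.46, adjusted p = 0.033 to 0.049). It also passed without WT 27-2 under solvent (-0.53 and -0.52, adjusted p = 0.0070 and 0.0051) and, at 72 h, without mut 1-2 (-0.46, adjusted p = 0.028). Calls lost without a single library were the rise at 6 h in WT (without WT solvent 2-1 or 2-2, or WT 6 h 2-1 or 27-2: 0.25 to 0.31, adjusted p = 0.052 to 0.098), the genotype difference at 24 h (without mut 1-2: -0.24, adjusted p = 0.079) and that at 72 h (without WT 27-2, mut 65-1 or mut 65-2: -0.27 to -0.24, adjusted p = 0.057 to 0.075). With the replications of a clone summed these 3 calls were lost as well (adjusted p = 0.080, 0.065 and 0.062).

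PLOD1, the lysyl hydroxylase whose loss causes the kyphoscoliotic form of Ehlers-Danlos syndrome, rose in both genotypes at 24 and 72 h. It lies on chromosome 1, bases 11934205 to 11975538. WT solvent libraries held 179, 203, 222 and 179 CPM, and WT 72 h libraries 278, 293, 345 and 330 CPM. Mut solvent libraries held 166, 182, 171 and 152 CPM, and mut 72 h libraries 258, 260, 248 and 277 CPM. In each genotype all 72 h libraries were above all solvent libraries. Group means at 6 and 24 h were 236 ± 37.2 and 298 ± 44.5 CPM in WT and 185 ± 13.1 and 217 ± 9.46 CPM in mut (SD, n = 4).

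The change of PLOD1 in WT was 0.26 ± 0.10 at 6 h (adjusted p = 0.066), 0.60 ± 0.10 at 24 h and 0.67 ± 0.10 at 72 h (adjusted p = 9.6e-06 and 2.2e-06). The value at 6 h passed with the series block (0.26, adjusted p = 0.0017), and without WT solvent 27-2 (0.33, adjusted p = 0.031) or WT 6 h 27-1 (0.32, adjusted p = 0.033). In mut it was 0.14 ± 0.10 at 6 h, which did not pass (adjusted p = 0.421), and 0.37 ± 0.10 and 0.64 ± 0.10 at 24 and 72 h (adjusted p = 0.0069 and 1.9e-05). The difference in response at 72 h was -0.03, with a 95% interval from -0.32 to 0.25. The mut libraries were lower at 6 h (-0.34 ± 0.10, adjusted p = 0.013), 24 h (-0.45 ± 0.10, adjusted p = 0.00078) and 72 h (-0.25 ± 0.10, adjusted p = 0.042). Under solvent the difference was -0.22 ± 0.10 (adjusted p = 0.148). The call at 6 h was lost without WT 27-2 (-0.24, adjusted p = 0.081) or mut 1-2 (-0.30, adjusted p = 0.052), and that at 72 h without WT 27-2 or 2-2 or mut 1-1, 65-1 or 1-2 (-0.25 to -0.20, adjusted p = 0.072 to 0.138).

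PLOD3, which also carries glycosyltransferase activity, and P4HA1, the other widely expressed prolyl hydroxylase subunit, were nearly flat. PLOD3 lies on chromosome 7, bases 101205977 to 101218420, and exons of ZNHIT1 overlap it on the other strand. Its group means ran from 133 ± 8.73 CPM (mut solvent) to 152 ± 4.94 CPM (WT 72 h). No change of PLOD3 passed the test, with values from -0.02 to 0.13 after TGFβ1, and its 24 h change in WT of -0.02 turned to 0.15 and passed with TMM scaling (adjusted p = 0.037). TMM scaling, which moved the median of all genes at 24 h in WT from -0.18 to 0.00, also passed PLOD3 at 72 h in WT (0.21) and at 24 and 72 h in mut (0.18 and 0.21). With library-size scaling PLOD3 passed at 72 h in mut without mut 65-1 (0.17, adjusted p = 0.043) and, as a lower level in mut under solvent, without WT 27-1 (-0.19, adjusted p = 0.038). P4HA1 lies on chromosome 10, bases 73007217 to 73096974. Its group means ran from 64.1 ± 4.39 CPM (mut 6 h) to 83.1 ± 1.89 CPM (mut 72 h), and WT 27-2 was the highest library at 72 h in WT with 94.4 CPM. The largest change, 0.25 ± 0.09 at 72 h in mut, had an adjusted p of 0.051 and passed with the series block (0.25, adjusted p = 0.0018). In WT the 72 h change of 0.16 ± 0.10 (adjusted p = 0.161) also passed with the block (0.16, adjusted p = 0.027). With TMM scaling both passed (0.33 in mut and 0.32 in WT). Without solvent library mut 1-2 the mut value was 0.29 (adjusted p = 0.039), and without solvent library WT 27-2 the WT value was 0.24 (adjusted p = 0.039). At 72 h the higher level in mut (0.13 ± 0.09, adjusted p = 0.287) passed without WT 27-2 (0.24, adjusted p = 0.039).

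LOXL2, a lysyl oxidase-like enzyme with scavenger receptor domains, was lower in mut at 24 and 72 h, and its WT libraries were widely spread. It lies on chromosome 8, bases 23296897 to 23425328, and exons of LOXL2-AS1 and of ENTPD4 overlap it. WT solvent libraries held 32.9, 35.0, 56.9 and 18.3 CPM, and WT 6 h libraries 29.8, 30.8, 60.0 and 19.6 CPM. At 24 h WT libraries held 38.3, 37.0, 76.0 and 34.6 CPM, and at 72 h 51.9, 46.7, 75.5 and 42.0 CPM. WT 27-2 was highest at every time and WT 2-2 lowest. In mut the solvent libraries held 18.0, 18.0, 21.3 and 17.1 CPM, and the 6 h libraries 19.4, 21.0, 17.2 and 17.3 CPM. At 24 h mut libraries held 22.7, 20.9, 20.8 and 18.8 CPM, and at 72 h 27.1, 30.8, 27.5 and 27.5 CPM. The mut libraries were tight, and at 24 and 72 h all of them were below all WT libraries.

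The mut libraries held 0.471 times the WT level of LOXL2 at 24 h (-1.09 ± 0.29, adjusted p = 0.0040) and 0.532 times at 72 h (-0.91 ± 0.27, adjusted p = 0.0072). Without the whole series WT 27-2 these were -0.82 and -0.73 (adjusted p = 0.00028 and 0.00029). Under solvent and at 6 h the difference was -0.84 ± 0.30 and -0.78 ± 0.30 (adjusted p = 0.063 and 0.062), and it passed without WT 2-2 of that time (-1.11 and -1.04, adjusted p = 0.00926 and 0.0145) and without the series WT 27-2 (-0.59 and -0.47, adjusted p = 0.0197 and 0.047). After TGFβ1, LOXL2 rose at 72 h in WT by 0.67 ± 0.26 (adjusted p = 0.033), a call lost without WT solvent 27-1 (0.67, adjusted p = 0.061), WT solvent 2-2 (0.40, adjusted p = 0.195) or WT 72 h 27-2 (0.50, adjusted p = 0.139), with the replications of a clone summed (0.63, adjusted p = 0.086) and with the compared groups alone (0.68, adjusted p = 0.079). In mut the 72 h change was 0.61 ± 0.30 (adjusted p = 0.147), although every mut 72 h library lay above every mut solvent library. The spread in that test includes the widely spread WT libraries. With the series block the mut change passed (0.60, adjusted p = 0.00012). The 24 h change in WT, 0.41 ± 0.27 (adjusted p = 0.203), passed with the block as well (0.38, adjusted p = 0.0017) and without WT solvent 27-2 (0.66, adjusted p = 0.045). The step from 6 to 24 h in WT (0.46 ± 0.27, adjusted p = 0.213) passed without WT 6 h 27-2 (0.77, adjusted p = 0.029). The difference in response at 72 h was -0.07, with a wide 95% interval from -0.89 to 0.75.

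**Figure D4:**
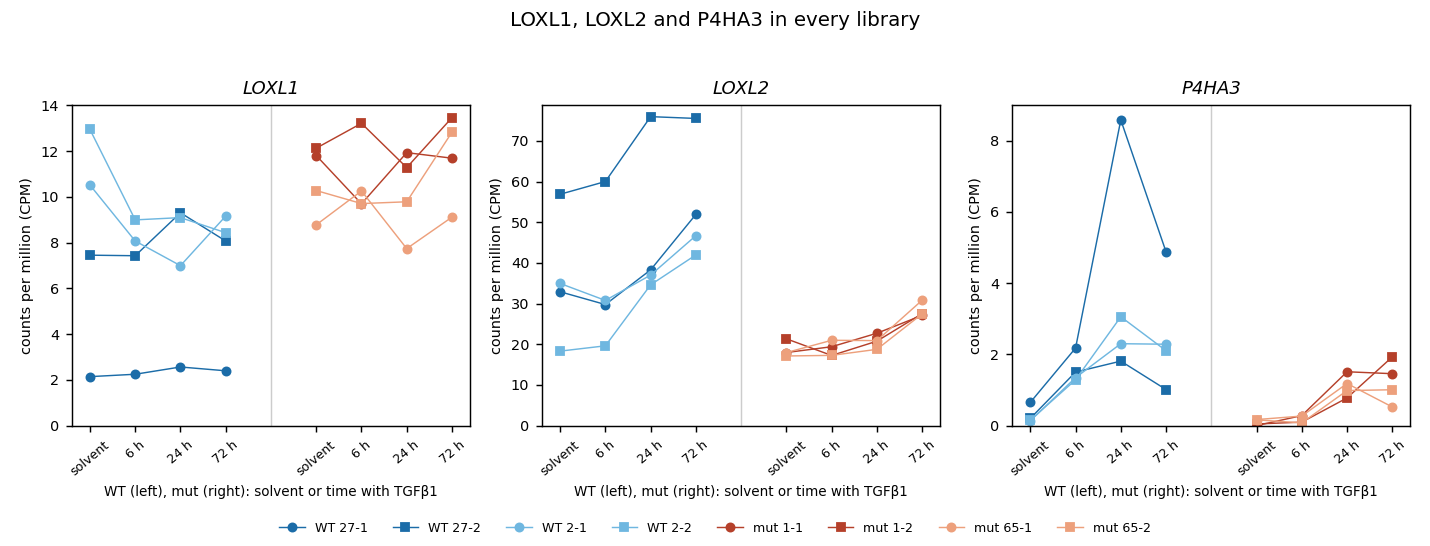
CPM of LOXL1, LOXL2 and P4HA3 in all 32 libraries, WT on the left and mut on the right of each panel, with a line for each series. WT 27-1 lies lowest for LOXL1 (2.14 to 2.56 CPM) and highest for P4HA3, and WT 27-2 lies highest for LOXL2 at every time.

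LOXL1, a lysyl oxidase-like enzyme needed for elastic fibre homeostasis, gave no call. It lies on chromosome 15, bases 73925989 to 73952137, and exons of LOXL1-AS1 overlap it on the other strand. Series WT 27-1 held 2.14, 2.24, 2.56 and 2.40 CPM from solvent to 72 h, while the other WT libraries lay between 6.99 and 12.9 CPM and the mut libraries between 7.74 and 13.5 CPM. The other replication of the same clone, WT 27-2, held 7.45, 7.43, 9.30 and 8.07 CPM. Changes after TGFβ1 lay between -0.14 and 0.14 with standard errors of 0.38 to 0.48, and mut against WT ran from 0.69 ± 0.43 to 0.92 ± 0.43 (adjusted p = 0.324 under solvent and 0.089 at 72 h).

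P4HA3, the least expressed of the prolyl hydroxylase subunits here, was near the detection floor in solvent and detectable after TGFβ1. It lies on chromosome 11, bases 74235801 to 74311640, and exons of PPME1 overlap it on the other strand. WT solvent libraries held 31, 6, 8 and 6 counts, or 0.650, 0.135, 0.201 and 0.151 CPM, and WT 6 h libraries 2.18, 1.34, 1.5 and 1.28 CPM. At 24 h WT libraries held 8.58, 2.30, 1.81 and 3.06 CPM, and at 72 h 4.88, 2.28, 1.01 and 2.10 CPM. WT 27-1 was the highest WT library at every time, and all treated WT libraries exceeded all WT solvent libraries. In mut the solvent libraries held 0, 8, 2 and 8 counts and the 6 h libraries 12, 14, 4 and 4 counts. At 24 h mut libraries held 1.51, 1.18, 0.776 and 0.983 CPM, and at 72 h 1.46, 0.522, 1.93 and 1.01 CPM. The mut libraries at 6 h overlapped their solvent libraries, and those at 24 and 72 h did not.

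Pooled over each group, P4HA3 in WT rose from 51 counts to 287, 778 and 462, which is 5.27 times (95% exact counting interval 3.90 to 7.25), 14.1 times (10.6 to 19.1) and 8.56 times (6.40 to 11.7) the solvent CPM. In mut, 18 counts became 34, 194 and 249, or 1.89 times (1.04 to 3.55), 11.7 times (7.23 to 20.2) and 13.5 times (8.35 to 23.1). Counting intervals leave out the spread between libraries, and WT 27-1 held 31 of the 51 WT solvent counts and 469 of the 778 at 24 h. Without the WT 27-1 solvent library the WT ratios were 9.71, 26.0 and 15.8, without its 24 h library the 24 h ratio was 7.95, and without the whole series the 6 h ratio was 8.53 (5.37 to 14.3). In mut the 6 h ratio was 1.18 (0.606 to 2.34) without series mut 1-1 and 3.06 (1.46 to 7.01) without mut 65-2, the 24 h ratio was 7.69 without mut 1-1 and the 72 h ratio 21.1 without mut 65-1. In the model the WT changes passed at all 3 times (adjusted p = 0.032, 0.00031 and 0.0024) and the mut changes at 24 and 72 h (adjusted p = 0.016 and 0.013), with fitted log2 values that depend on the offset added to low counts. The mut level was 0.115 times WT at 6 h (0.0779 to 0.164) and 0.266 times at 24 h (0.226 to 0.312), both called (adjusted p = 0.013 and 0.012), and the 24 h ratio was 0.473 (0.393 to 0.567) without WT 27-1. Under solvent the mut level was 0.321 times WT (0.176 to 0.558), which was not called (adjusted p = 0.405). Without WT 27-1 the solvent ratio was 0.590 (0.294 to 1.18). The difference in response did not pass at 6, 24 or 72 h (adjusted p = 0.999, 0.942 and 0.720). Calls lost without a single library were that at 24 h between genotypes (without WT 27-1, adjusted p = 0.059), that at 24 h in mut (without mut solvent 1-1, adjusted p = 0.058) and that at 6 h in WT (without WT solvent 2-1, 27-2 or 2-2, or WT 6 h 27-1, adjusted p = 0.059 to 0.093). The difference between genotypes at 72 h, 0.504 times WT (adjusted p = 0.162), passed without WT 27-2 (adjusted p = 0.035). The change from 6 to 24 h did not pass in WT (adjusted p = 0.056) or mut (adjusted p = 0.108) and did with the series block (adjusted p = 0.00029 and 0.0072), and in WT also without WT 24 h 2-1 or 27-2 (adjusted p = 0.038 and 0.017).

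LOXL4 lies on chromosome 10, bases 98247690 to 98268194. It had 44 counts over all 32 libraries, with 0 counts in 17 of them and at most 8 in any, or 0.151 CPM. It did not reach the count filter, and no change in it was detectable at this depth, where 3 counts correspond to 0.0549 to 0.0756 CPM.

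Per kilobase of merged exon length, the WT solvent levels fell in the order PLOD1 (36.8 CPM per kb), PLOD3 (25.9), P4HA1 (22.1), PLOD2 (20.8), P4HA2 (6.78), LOXL2 (5.98), LOXL1 (2.27), LOX (1.78), P4HA3 (0.0712) and LOXL4 (0.0138). At 72 h in WT, PLOD1 (58.6 CPM per kb) and PLOD2 (42.2) stood above PLOD3 (26.8) and P4HA1 (24.7), P4HA2 reached 15.6, and LOX (5.63) remained below LOXL2 (9.03). PLOD2 and P4HA2 have long merged exons (14518 and 10128 bases) beside their canonical transcripts (3749 and 4547 bases). With the canonical length PLOD2 came first in both conditions, at 80.5 CPM per kb under solvent and 163 at 72 h, ahead of PLOD1 at 65.8 and 105.

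Over the 8 groups the highest mean level of LOX was in WT at 24 h (34.4 ± 5.49 CPM, SD, n = 4), and only the step from WT 6 h down to WT solvent (9.94 ± 1.31 CPM) separated neighbouring groups without overlap. For P4HA2 the order was WT 24 h (166 ± 7.35 CPM), WT 72 h (158 ± 2.19), mut 24 h (142 ± 7.83), mut 6 h, WT 6 h, mut 72 h (119 ± 10.4), mut solvent and WT solvent, with gaps after WT 72 h and after mut 72 h. For PLOD2 the only gap lay between WT 72 h (612 ± 34.7 CPM) and WT 24 h (549 ± 5.39 CPM), and for LOXL2 between mut 72 h (28.2 ± 1.74 CPM) and mut 24 h (20.8 ± 1.62 CPM). For P4HA3 the gap lay between mut 24 h (1.11 ± 0.313 CPM) and WT solvent (0.284 ± 0.246 CPM). PLOD1, PLOD3, P4HA1 and LOXL1 showed no gap between neighbouring groups.

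The genes whose log2 levels followed each member most closely over the 32 libraries, among genes with a mean of at least 10 CPM, are given as a description, since the libraries share clones, times and depth. For LOX they were BMP1 (Pearson r = 0.870), the proteinase that also activates it, and NEDD9 (0.862). For PLOD1 they were VIM (0.973) and POLM (0.967), for PLOD2 FN1 (0.962) and CDH2 (0.954), and for P4HA2 DNAJB2 (0.974) and LBH (0.970). LOXL2 followed CFAP251 (0.928) and SFXN3 (0.909), and P4HA3 followed LIPG (0.895). LOXL1 (LMX1B, 0.751, and AKR1C1, 0.718), PLOD3 (GFOD2, 0.777, and SIPA1, 0.767) and P4HA1 (TM9SF3, 0.813, and CD99L2, 0.768) had looser partners. The rank correlation (Spearman) was 0.353 for LOXL1 with LMX1B, and 0.700 and 0.646 for LOX with BMP1 and NEDD9. For the other pairs it ran from 0.668 to 0.979.

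Most collagen substrates of these enzymes rose in both genotypes. Of 12 collagen and elastin genes listed, 10 were tested, and at 72 h 7 rose and 1 fell in each genotype, where 13.9% of all genes were called higher and 38.4% lower in WT and 7.81% and 16.3% in mut, with a median log2 change of 1.39 and 1.61 beside -0.19 and -0.09 for all genes. COL4A1, a basement membrane collagen chain, went from 108 ± 35.0 to 612 ± 73.6 CPM in WT (2.55 ± 0.23, adjusted p = 9.0e-10) and rose by 2.09 ± 0.23 in mut (adjusted p = 1.7e-07). COL1A1, the main fibrillar chain, went from 8.32 ± 1.99 to 42.4 ± 10.9 CPM in WT (2.32 ± 0.26, adjusted p = 2.7e-08). The gene that fell was COL5A2 in WT (by 0.38 on the log2 scale, adjusted p = 0.0017) and ELN, which encodes elastin, in mut (by 1.82, adjusted p = 0.015). The difference in response at 72 h was -0.46 ± 0.33 for COL4A1 and -0.39 ± 0.41 for COL1A1 and did not pass (adjusted p = 0.393 and 0.590).

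Of 15 genes for extracellular processing and assembly, 13 were tested, with 9 higher and 1 lower at 72 h in WT and 4 higher and 2 lower in mut, beside the same shares of all genes (13.9% and 38.4% in WT, 7.81% and 16.3% in mut). POSTN, a matricellular protein, rose from 5.16 ± 9.56 to 513 ± 250 CPM in WT, and FN1, the fibronectin on which collagen is assembled, from 741 ± 548 to 12905 ± 3773 CPM (adjusted p = 0.0014 and 1.7e-08). LOXL3, the remaining lysyl oxidase-like gene, was the one that fell in WT, from 3.35 ± 0.388 to 2.15 ± 0.388 CPM (-0.65 ± 0.22, adjusted p = 0.016), and in mut it fell from 4.17 ± 0.324 to 3.03 ± 0.882 CPM (-0.54 ± 0.19, adjusted p = 0.039). In WT LOXL3 and LOX moved in opposite directions.

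Of 18 genes for collagen folding and export in the endoplasmic reticulum, 17 were tested, with 7 higher and 3 lower at 72 h in WT and 7 higher and 1 lower in mut, against the same all-gene shares. P4HB, the partner of the P4HA subunits, rose in WT from 760 ± 61.4 to 1007 ± 124 CPM (0.40 ± 0.09, adjusted p = 0.00049), and its change of 0.05 ± 0.09 in mut did not pass (adjusted p = 0.745), with a difference in response of -0.35 ± 0.13 that did not pass either (adjusted p = 0.067). P3H3, a prolyl 3-hydroxylase family member, rose by 0.82 ± 0.29 in WT (adjusted p = 0.019) and SEC23A, a COPII coat subunit, by 0.65 ± 0.09 (adjusted p = 1.2e-06). P3H2, a prolyl 3-hydroxylase, fell by 0.91 and TMEM38B, a potassium channel of the endoplasmic reticulum, by 0.81 on the log2 scale (adjusted p = 4.6e-06 and 2.3e-06). In mut the change of TMEM38B was -0.08 ± 0.11 (adjusted p = 0.617), and its response differed between genotypes (0.72 ± 0.16, adjusted p = 0.0035).

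Several members are known hypoxia-responsive genes, and 12 other genes of that response were read beside them. At 72 h 3 rose and 5 fell in WT, and in mut 1 was called, PDK1, which fell by 0.39 on the log2 scale (adjusted p = 0.0050). Of all genes, 13.9% were called higher and 38.4% lower in WT, and 7.81% higher and 16.3% lower in mut. Whether the list differed from all genes was not tested. VEGFA, the angiogenic growth factor, rose in WT from 106 ± 12.6 to 168 ± 14.5 CPM (0.67 ± 0.18, adjusted p = 0.0023), and ADM by 0.37 ± 0.15 (adjusted p = 0.036). PDK1, a kinase that restrains pyruvate dehydrogenase, fell from 23.7 ± 0.601 to 13.0 ± 2.02 CPM (-0.87 ± 0.11, adjusted p = 1.3e-07), and CA9, with a WT solvent mean of 5.04 ± 6.29 CPM, was at 0.0662 ± 0.0439 CPM at 72 h (adjusted p = 0.013).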

How the data were processed

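The deposited table holds raw read counts per gene (Ensembl identifiers) that the authors made from TruSeq RNA v2 libraries with Trimmomatic and STAR on the Ensembl GRCh38 genome, with tool versions not given in the sources used here. It was used as deposited, with symbols from GENCODE release 44 (17763 of 17788 genes). Counts were scaled by library total (CPM), with no composition factor, genes passing filterByExpr (minimum count 10, total 15; 14865 genes) were fitted with limma-voom (limma 3.58.1, R 4.3.3) over all 32 libraries, and p-values were adjusted by Benjamini-Hochberg in each of 17 comparisons. edgeR 4.0.16 and DESeq2 1.42.0 were alternatives. The members, lists and motifs were chosen with earlier results of these data known. Besides all members, the text names P4HB, LOXL3, JUNB, up to 2 called genes per list with the strongest rise and up to 2 with the strongest fall at 72 h in WT (mean of at least 1 CPM), and the 2 genes most like each member, of which 1 is not reported here. ELN, DCN, PDGFRA, PDGFRB, CD68, the 6 basal mammary markers and the 4 general epithelial markers were named after their values were seen.

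Library totals of 39702412 to 54651906 counts make counting error small except for P4HA3 and LOXL4. The limma-voom p-values over all 32 libraries rest on the spread between libraries of the same group, pooled over all 8 groups. They do not measure the spread of the compared groups alone. Each group held 4 libraries of 2 clones, so genotype and clonal differences cannot be told apart. A series pairs libraries of the same clone and replication, as the labels give them, and its libraries deviated together (mean correlation 0.431, above 0.1 in 46 of 48 pairs).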

Additional observations from a re-analysis of the deposited data

Results flagged for a closer look

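The response of LOX to TGFβ1 differed between genotypes by -1.34 (log2, mut minus WT) at 24 h and -1.40 at 72 h, and that of P4HA2 by -0.37 and -0.55, by the test of the difference itself. Single libraries stood apart from the other 3 of their group in 9 of 80 groups of values examined by Dixon's ratio, and chance marks about 1 group in 20. For LOXL1 these were WT 27-1 at 72 h (2.40 CPM, others 8.07 to 9.16) and mut 1-2 at 6 h (13.2 CPM, others 9.70 to 10.3). For LOXL2 they were WT 27-2 at 24 h (76.0 CPM, others 34.6 to 38.3) and mut 65-1 at 72 h (30.8 CPM, others 27.1 to 27.5). PLOD1 in mut 1-2 at 24 h was at 203 CPM (others 220 to 224). PLOD2 in WT 27-1 at 24 h was at 541 CPM (others 551 to 553) and in mut 1-1 at 6 h at 355 CPM (others 313 to 318). P4HA1 in WT 27-2 at 72 h was at 94.4 CPM (others 68.8 to 72.0), and P4HA3 in WT 27-1 under solvent was at 0.650 CPM (others 0.135 to 0.201).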

How the results depend on the processing

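Of 3355 single values recomputed for the members, 2998 kept direction and side of the threshold, 121 gained a call, 89 lost one, 143 changed sign without a call and 4 reversed. The 4 were PLOD3 at 24 h in WT (-0.02), at 0.15 with TMM factors, 0.15 with edgeR, 0.16 with DESeq2 and 0.15 with TMM and the series block, and TMM factors moved the median of all genes there from -0.18 to 0.00. The number of members called after TGFβ1 in WT was 1 at 6 h and 3 at 24 h at a minimum change of 1 (log2), and in mut 0, 1 and 1 at 6, 24 and 72 h. At that minimum it was 1, 2 and 0 for mut against WT at 6, 24 and 72 h, 1 and 1 for the difference in response at 24 and 72 h, and 0 for 24 against 6 h in WT and in mut. With the series as a replicate block it was 2 at 6 h in mut, 4 for 24 against 6 h in mut and 3 for 72 against 24 h in mut. With TMM and that block, an alternative chosen after seeing the data, it was 8 at 24 h in WT, 3, 7 and 7 at 6, 24 and 72 h in mut, 4 for the difference in response at 24 h, 7 and 4 for 24 against 6 h in WT and mut, and 3 for 72 against 24 h in mut. For mut against WT under solvent it was 2 with edgeR, DESeq2 or without series WT 27-2, and for 24 against 6 h in mut 2 with edgeR, DESeq2 or the compared groups alone. With replications of a clone summed it was 3 for mut against WT at 24 h, 1 for the difference in response at 24 h and 0 for 24 against 6 h in mut. For 72 against 24 h in mut it was 1 with the compared groups alone or without series WT 27-2. Leaving out 1 library gave 2 to 4 at 6 h in WT, 1 to 2, 3 to 5 and 2 to 4 for mut against WT under solvent and at 24 and 72 h, 1 to 3 for the difference in response at 24 h, 0 to 1 for 24 against 6 h in mut and 0 to 1 for 72 against 24 h in mut. With replication number as a replicate block the call of P4HA3 for 24 against 6 h in WT was gained (1.14, adjusted p = 0.036) and no other member call changed. The call of P4HA3 at 72 h in mut was lost without the series mut 1-2 (adjusted p = 0.076). The cause of these shifts was not tested. The series block cannot be fitted for mut against WT. Pooled ratios of P4HA3 without single libraries and series were added after seeing the data.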
